A study of Mus musculus with 6 samples.

Results

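The transcription factors that build and maintain skeletal muscle were followed in the tibialis anterior (TA) muscle of aged mice with and without SELENOW. The set holds the 4 myogenic regulatory factors Myod1, Myog, Myf5 and Myf6, the 3 MEF2 factors Mef2a, Mef2c and Mef2d, and Pax7. These 8 genes were found by symbol among the 55416 genes of the deposited count table, and all 8 passed the filter on low counts that left 15623 genes for testing. RNA was sequenced from the TA muscle of 3 wild-type (WT) mice and 3 SELENOW knockout (KO) mice, all naturally aged to 24 months. The labels name no drug treatment, and no young mice of either genotype were among these samples, so every comparison is between genotypes in old muscle. The KO line lacks an exon of Selenow, removed with CRISPR-Cas9 guides on a C57BL/6N background, and no tissue-specific driver is named. The WT libraries are called W, W2 and W3 and the KO libraries K1, K2 and K3, where the digit is the replicate number and W has none.

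Myogenic regulatory factors (MRFs) are basic helix-loop-helix proteins that pair with E proteins and bind E-boxes in muscle genes. MYF5 and MYOD mark committed myoblasts, myogenin (MYOG) drives their differentiation, and MRF4, the product of Myf6, is the MRF of mature fibers. MEF2 proteins are MADS-box factors that act with the MRFs and are held in check by class IIa histone deacetylases. PAX7 marks satellite cells, the resident stem cells of muscle. In adult fibers Myog is known to rise after denervation, and in rodent muscle Myod1 is known to be more abundant in fast and Myog in slow muscle.

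The regulators are also linked through their own promoters, and the Myog promoter is shown because Myog had the largest fold change of the set and carries sites for several other regulators. The second promoter, of Mef2a, is shown because it holds a MEF2 core over its start site. Both come from RefSeq (GRCm38.p6), run from 250 bases before to 50 bases after the start of transcription, and are written 5′ to 3′ on the strand of the gene. Capitals mark E-boxes (CANNTG), the MEF2 core (TANNNNTA with each N an A or a T) and the MEF3 motif (TCAGGTTTC), searched on both strands. The MEF2 core does not overlap an E-box or the MEF3 motif in either sequence.
Myog, chr1:134289754-134290053, plus strand: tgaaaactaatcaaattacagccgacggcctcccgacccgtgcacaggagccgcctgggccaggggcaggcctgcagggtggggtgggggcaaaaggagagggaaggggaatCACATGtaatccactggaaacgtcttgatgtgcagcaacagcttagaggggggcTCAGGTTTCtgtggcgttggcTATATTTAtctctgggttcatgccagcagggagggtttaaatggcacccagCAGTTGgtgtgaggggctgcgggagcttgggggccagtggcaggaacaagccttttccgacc
Mef2a, chr7:67372809-67373108, minus strand: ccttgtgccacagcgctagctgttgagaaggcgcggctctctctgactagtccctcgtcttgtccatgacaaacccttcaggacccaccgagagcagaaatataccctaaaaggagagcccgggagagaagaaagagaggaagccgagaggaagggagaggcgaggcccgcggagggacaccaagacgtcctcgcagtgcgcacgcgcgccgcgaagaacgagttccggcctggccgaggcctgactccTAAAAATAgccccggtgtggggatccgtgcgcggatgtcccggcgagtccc
The Myog promoter held 2 E-boxes, 138 and 12 bases before the start, a MEF2 core 63 bases before it and a MEF3 motif 84 bases before it. The Mef2a promoter held a MEF2 core that begins 1 base before the start, and no E-box. Among all 32851 promoters of the same length, 72.3% held an E-box, 9.32% a MEF2 core and 0.429% the MEF3 motif. The table gave a promoter for 6 of the 8 genes, with 3 entries for Mef2c, and of these the first Mef2c entry held 2 E-boxes and a MEF2 core and the third held 1 E-box. These matches describe letters in a window and were not tested as binding sites. Myod1 and Myf6 had no entry.

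Total counts were 25351976 to 29111213 per library. The libraries resembled fast muscle, the fiber type of the TA: the summed level of 9 fast fiber markers was 75800 to 101000 CPM (counts scaled to library size), against 30.3 to 87.7 for 7 slow fiber markers, and all 16 were detected. Selenow itself was at 268, 245 and 219 CPM in W, W2 and W3 and 193, 212 and 210 CPM in K1, K2 and K3 (log2 fold change -0.25, edgeR adjusted p = 0.604), and counts per gene cannot show the loss of an exon. The study reported the loss of the protein in KO TA muscle by Western blot. The library W3 stood apart from W and W2: its summed leukocyte markers were at 59.1 CPM against 15.0 to 25.5 in the other 5 libraries, its fibroblast markers at 236 CPM against 64.2 to 132, and its slow fiber markers at 87.7 CPM against 30.3 to 58.3. W3 was also the highest library for 6 of the 8 regulators, and the share of all tested genes that were highest there is not given here. The values of Myog, Myod1, their called targets and the marker lists in which W3 stood out are also given without it. In RNA from whole muscle, fewer cells of a type and less RNA per cell cannot be told apart.

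The genotypes were compared with edgeR's quasi-likelihood test on the raw counts. A gene was called by the thresholds of the study, an unadjusted p under 0.05 with a fold change over 1.5 or under 0.7. Of the 8 regulators 2 were called, Myog and Myod1, and both were lower in KO muscle. In the background, 836 of the 15623 genes were called (5.35%), of which 491 were lower in KO (3.14%) and 345 higher (2.21%). The set is small and the study itself named both genes from these libraries, so their calls are not independent evidence. By real-time qPCR the study also reported lower mRNA of both genes in KO muscle. It does not state whether the sequenced mice were among those measured. After Benjamini-Hochberg adjustment no gene had an adjusted p under 0.05 with edgeR (0 of 15623, 0.0%), 1545 (9.89%) had an unadjusted p under 0.05, and DESeq2 gave 45 genes with an adjusted p under 0.05.

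Myog (ENSMUSG00000026459, chr1:134217727-134220286 in GRCm39, plus strand) encodes myogenin, the MRF of differentiation. It had 140, 117 and 217 counts in W, W2 and W3 and 82, 37 and 54 counts in K1, K2 and K3. After TMM scaling these were 5.68, 3.64 and 7.15 CPM in WT and 3.30, 1.51 and 2.02 CPM in KO. Every KO library lay below every WT library, and the gap was narrow, between W2 and K1. Myog fell from 5.49 ± 1.76 to 2.28 ± 0.924 CPM (SD, n = 3 each). The log2 fold change was -1.27 (standard error 0.32, 95% interval -1.98 to -0.55), or 0.416 of the WT level. The edgeR adjusted p was 0.299, from an unadjusted p of 0.00282 that was number 144 among the 15623 genes. DESeq2 gave the same fold change with an adjusted p of 0.0454. Without W3 the log2 fold change was -1.03 (unadjusted p = 0.0109, edgeR), and without K2, the lowest library, it was -1.04 (unadjusted p = 0.00806, edgeR).

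Myod1 (ENSMUSG00000009471, chr7:46025898-46028523 in GRCm39, plus strand) encodes MYOD, the determination factor that can turn other cells into muscle. Its level was 6.41, 6.69 and 8.79 CPM in W, W2 and W3 and 4.15, 5.83 and 4.60 CPM in K1, K2 and K3, from 103 to 267 counts. The genotypes did not overlap, with K2 closest to the WT libraries. Myod1 fell from 7.30 ± 1.30 to 4.86 ± 0.870 CPM (SD, n = 3 each). On the log2 scale the change was -0.59 with a standard error of 0.19 (95% interval -0.99 to -0.18, edgeR adjusted p = 0.340). DESeq2 gave an adjusted p of 0.345. The call depended on single libraries. Without W3 the log2 fold change was -0.43 and without K1 it was -0.48, both short of the fold change threshold. Among all tested genes, 15.4% had libraries of the genotypes that did not overlap and 7.87% did so with KO lower, so the separation of both Myog and Myod1 is to be read against those shares. For each of them the exact permutation test over the 6 libraries gave a two-sided p of 0.1, the smallest that 3 against 3 allow.

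**Figure D1:**
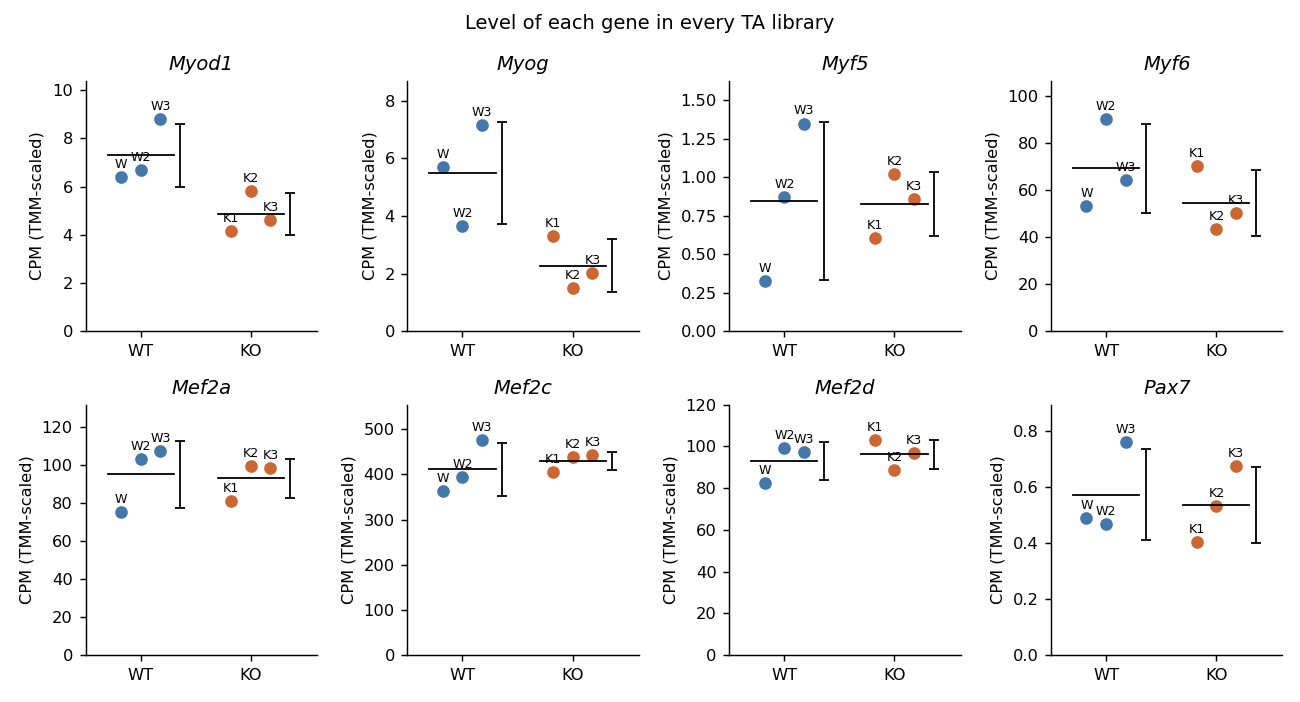
Level of each regulator in CPM (TMM-scaled, linear axes from 0) in the 3 WT (blue) and 3 KO (orange) libraries. Horizontal lines are group means and the bars beside them 1 SD; the genotypes are apart for Myod1 and Myog and overlap for the other 6 genes.

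Myf6 (ENSMUSG00000035923, chr10:107328714-107330598 in GRCm39, minus strand) had 53.3, 90.2 and 64.6 CPM in W, W2 and W3 and 70.5, 43.4 and 50.5 CPM in K1, K2 and K3. The highest value was in W2, and K1 lay above both W and W3. The log2 fold change was -0.34 (standard error 0.23, 95% interval -0.85 to 0.17, edgeR adjusted p = 0.660), so a fall to 0.554 of the WT level and a rise to 1.12 both lie within its interval. Without K1 it was -0.56 with an unadjusted p of 0.0265 from edgeR and passed the study's thresholds, so its side of the thresholds depended on K1. Without W2 it was -0.10.

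Myf5 (ENSMUSG00000000435, chr10:107318769-107321995 in GRCm39, minus strand) lies next to Myf6, with 6718 bases between the genes. Its counts were 8, 28 and 41 in W, W2 and W3 and 15, 25 and 23 in K1, K2 and K3. The WT libraries held both the lowest and the highest value. In W the 8 counts have an exact 95% Poisson interval of 3.45 to 15.8, which covers counting error only, and W3's interval of 29.4 to 55.6 lies wholly above it. The log2 fold change was -0.05 (95% interval -1.07 to 0.96, edgeR adjusted p = 0.977), and at this depth a change to 0.476 or 1.95 of the WT level could not be told from none.

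Pax7 (ENSMUSG00000028736, chr4:139464373-139560839 in GRCm39, minus strand) was the least abundant of the set, with 12, 15 and 23 counts in WT and 10, 13 and 18 in KO. Its mean level was 0.570 ± 0.162 CPM in WT and 0.535 ± 0.135 CPM in KO (SD, n = 3 for each genotype), a spread of 28.5% and 25.3% of the mean, close to the 25.2% and 27.6% that counting alone gives. The genotypes overlapped, at -0.09 on the log2 scale (95% interval -1.02 to 0.84, edgeR adjusted p = 0.959). Of 13 other satellite cell markers 12 were tested, and none was called. Without W3, Chodl, a lectin-like membrane protein named after its value was seen, was called higher. The summed level of the 13 was 77.2 to 90.4 CPM in WT and 72.6 to 82.0 in KO, and their median log2 fold change was -0.08, against -0.0042 over all tested genes. Leaving out W3 brought that median to -0.01, with 6 of the 12 tested negative and 6 positive. The highest per kilobase, Itga7, the laminin receptor subunit of muscle, had 37.7, 38.6 and 41.6 CPM in WT and 36.7, 34.6 and 28.4 in KO (log2 fold change -0.24, edgeR adjusted p = 0.587), with no overlap of the genotypes. It was the only 1 of the 12 without overlap, and 7.87% of all tested genes had KO libraries wholly below WT. Sdc4, a syndecan of satellite cells, had the smallest p of the list, at -0.32 on the log2 scale (edgeR adjusted p = 0.540).

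The 3 MEF2 factors differed little between the genotypes. Mef2c (ENSMUSG00000005583, chr13:83652153-83815199 in GRCm39, plus strand) had 363, 394 and 476 CPM in WT and 406, 438 and 444 CPM in KO. The KO libraries lay within the range of the WT libraries, and the log2 fold change was 0.06 (95% interval -0.27 to 0.40, edgeR adjusted p = 0.918). Mef2d (ENSMUSG00000001419, chr3:88049679-88079393 in GRCm39, plus strand) had 82.3, 99.1 and 97.4 CPM in WT and 103, 88.9 and 96.8 CPM in KO (log2 fold change 0.05, 95% interval -0.25 to 0.35, edgeR adjusted p = 0.933). Mef2a (ENSMUSG00000030557, chr7:66880911-67022606 in GRCm39, minus strand) had 74.9, 103 and 107 CPM in WT and 81.1, 99.5 and 98.2 CPM in KO (log2 fold change -0.03, 95% interval -0.39 to 0.32, edgeR adjusted p = 0.961). All 3 were lowest in W. The intervals of all 3 lay inside the study's fold change thresholds, whereas those of Myf5, Myf6 and Pax7 did not.

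**Figure D2:**
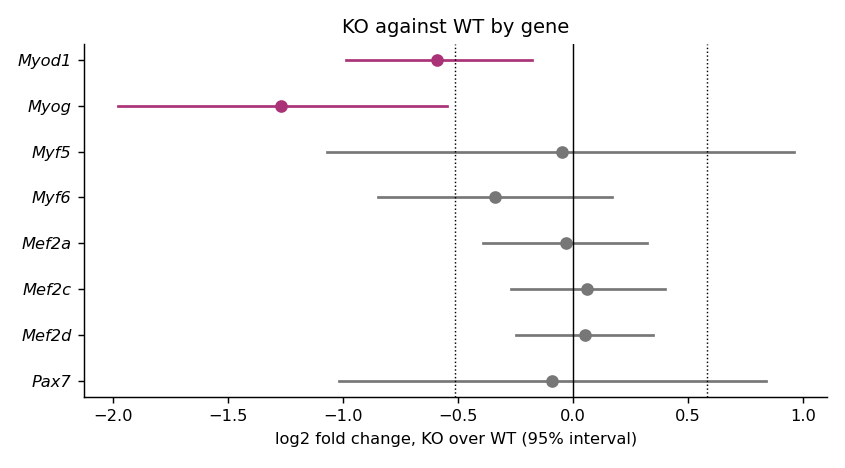
Log2 fold change of KO over WT for the 8 genes, with 95% intervals from edgeR's fit; dotted lines mark the fold change thresholds of the study and coloured points the 2 genes past its thresholds. Myog lies at -1.27 and Myod1 at -0.59, and the 3 MEF2 intervals fall between the dotted lines.

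Counts of the members could be affected by neighbours or relatives. The longest run of bases shared by any pair of MRF transcripts was 26, between Myod1 and Myf5, and by any pair of MEF2 transcripts 28, between Mef2c and Mef2d, against reads of 150 bases. The exons of Mef2a shared 302 bases, or 2.06% of their length, with Lysmd4 on the other strand, and those of Mef2d shared 531 bases, or 8.87%, with 1700113A16Rik on the other strand. The sources used here name no strand setting for the counting, so reads there cannot be assigned with certainty. No other gene of the table overlapped Myod1, Myog, Myf5, Myf6, Mef2c or Pax7. Counts per gene do not separate the splice forms of the MEF2 genes.

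To compare genes, levels were divided by the exon length of each gene (CPM per kilobase). Averaged over the 6 libraries, Myf6 stood highest at 49.2, followed by Mef2c at 26.7, Mef2d at 15.8, Mef2a at 6.40, Myod1 at 3.27, Myog at 2.60, Myf5 at 0.402 and Pax7 at 0.0943 CPM per kilobase. Myf6 lay at the percentile 96.9 of all tested genes by this level and Pax7 at 2.59. Each gene was above the next in all 6 libraries, except that Myod1 was above Myog in only 4 of the 6. Lengths are those of all annotated exons together, so genes with many rarely used exons are placed too low.

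Myf6 made up most of the MRF level in every library, 85.1%, 91.7% and 83.4% in W, W2 and W3 and 92.2%, 88.1% and 90.4% in K1, K2 and K3. The means were 86.8% ± 4.38 in WT against 90.2% ± 2.04 in KO (SD, n = 3 each), and the groups overlapped (exact permutation test, two-sided, p = 0.3). Myog supplied 7.65%, 3.13% and 7.80% of the MRF level in WT and 3.65%, 2.59% and 3.06% in KO, with W2 inside the KO range (exact permutation test, two-sided, p = 0.2). Mef2c supplied 54.3% ± 2.47 of the MEF2 level in WT against 54.9% ± 1.57 in KO (SD, n = 3 each; exact permutation test, two-sided, p = 0.6). Over the 7 shares and the ratio given next, all 8 exact permutation tests had adjusted p-values between 0.8 and 1.0.

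Whether Myog differed between the genotypes by more than Myod1 was tested within libraries. The ratio of Myog to Myod1 per kilobase was 1.10, 0.677 and 1.01 in W, W2 and W3 and 0.991, 0.322 and 0.547 in K1, K2 and K3. The K1 ratio lay among the WT values. On the log2 scale the mean difference of KO minus WT was -0.705 (exact permutation test over 6 libraries, two-sided, p = 0.2, adjusted p = 0.8, where 0.1 is the smallest p that 3 against 3 allow), and the difference ranged from -1.12 without K1 to -0.31 without K2. With 3 libraries per genotype this test could not have reached 0.05, so it does not settle whether the falls differ.

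**Figure D3:**
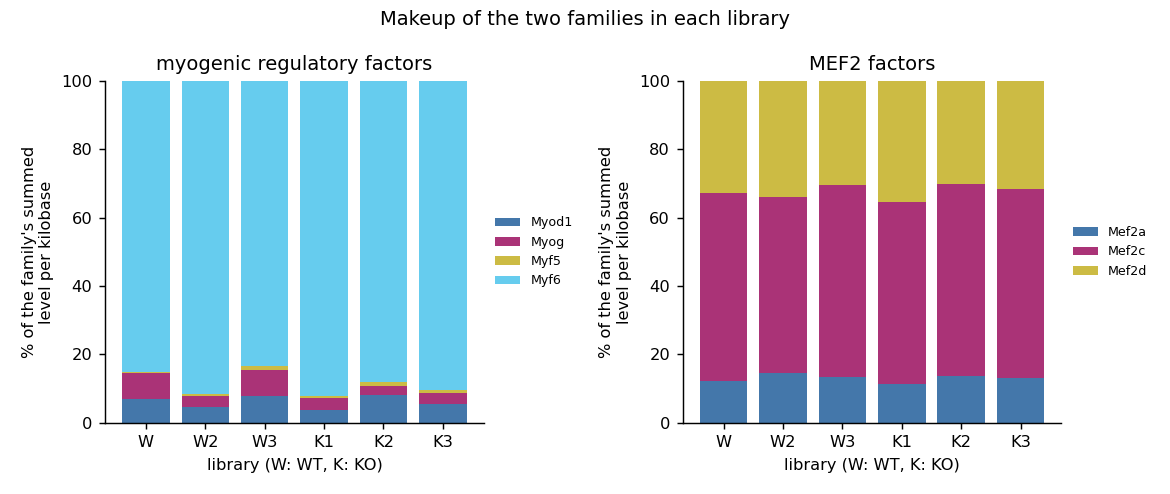
Share of each gene in the summed level per kilobase of the 4 MRFs (left) and of the 3 MEF2 factors (right), as stacked bars from 0 to 100% in each library. Myf6 makes up 83.4% to 92.2% of the MRF level, and the MEF2 shares differ little between libraries.

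The partners and upstream regulators of the MRFs were described from lists of known genes, and none of their genes was called. The E proteins Tcf3, Tcf4 and Tcf12, with which MRFs dimerize, had log2 fold changes from -0.02 to 0.05. Tcf4, the highest per kilobase, had 41.5 ± 5.48 CPM in WT and 43.0 ± 1.71 CPM in KO (SD, n = 3 for each). Of 11 inhibitors and antagonists of the MRFs, 8 were tested, with a median log2 fold change of -0.06. Bhlhe40, a repressor of the basic helix-loop-helix family and the highest of them per kilobase, had 39.1 ± 2.06 CPM in WT and 41.0 ± 9.30 CPM in KO (SD, n = 3 for each). Id1, which binds E proteins and keeps them from the MRFs, had the smallest p of that list, at 0.29 on the log2 scale (95% interval -0.22 to 0.80, edgeR adjusted p = 0.713). It depended on single WT libraries, at 0.63 and past the study's thresholds without W and at 0.11 without W2. Of 19 upstream regulators 18 were tested, 9 with a negative and 9 with a positive log2 fold change. Meox2, a homeobox gene of muscle precursors, had the smallest p of the list, at 0.34 on the log2 scale (edgeR adjusted p = 0.641), and at 0.20 without W2. It passed the study's thresholds in 2 of 15 other settings, both fitted to the 4 libraries of replicates 2 and 3 (0.60 and 0.59).

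Of the 17 listed targets of the MRFs, 16 were tested and 3 were called, all lower in KO. The median log2 fold change of the 16 was -0.58, against -0.0042 over all tested genes. Of the 16, 14 were negative, and 4 had libraries that did not overlap, all with KO lower. The list was chosen with earlier results of these data known, so these values describe it and are not independent evidence. Over all tested genes, 3.14% were called lower and 7.87% had KO libraries wholly below WT. Without W3 the median was -0.53 with 13 of 16 negative. In that fit 4 were called lower, the same 3 and Myl4, an embryonic myosin light chain named after its value was seen. Trim63 and Fbxo32, which encode MuRF-1 and Atrogin-1, were also negative (-0.58 and -0.43 on the log2 scale). Both are named after their values were seen. They peaked in W2, at 424 and 693 CPM, against 116 to 182 and 228 to 391 CPM in the other libraries. By Western blot the study reported both proteins higher in aged KO TA muscle. The list median without W2 is not given here. The 3 called targets are also in the study's own list of changed genes from these libraries, so they are not independent evidence. For Chrng and Myl4 the study also reported lower mRNA in KO muscle by qPCR. Chrna1, the alpha subunit of the muscle acetylcholine receptor, had 7.83, 10.7 and 19.1 CPM in W, W2 and W3 and 6.53, 7.26 and 3.85 CPM in K1, K2 and K3 (log2 fold change -1.10, standard error 0.40, edgeR adjusted p = 0.469). It was highest in W3. Without K1 it stood at -1.18 with an unadjusted p of 0.0598 from edgeR, and without K3 at -0.86 with 0.0615, so the call was lost while the change stayed of similar size. Chrng, the fetal gamma subunit of the receptor, had 20, 22 and 80 counts in WT and 13, 3 and 2 in KO (log2 fold change -2.52, 95% interval -4.27 to -0.76, edgeR adjusted p = 0.356). W3 was far above the other libraries, and without it the log2 fold change of Chrng was -1.63 and that of Chrna1 -0.66, both past the thresholds. Without K1 that of Chrng was -3.75. Cdkn1a, which encodes the cell cycle inhibitor p21, had 9.41, 12.4 and 17.4 CPM in WT and 7.45, 6.77 and 8.60 CPM in KO (log2 fold change -0.78, standard error 0.21, edgeR adjusted p = 0.301), and it stood at -0.52 without W3, still past the thresholds. Without W3 and K2 together, a choice made after seeing the data, Cdkn1a (-0.44) and Chrng (-1.33) did not pass the thresholds. The target with the highest level per kilobase, Acta1, the alpha actin of skeletal muscle, stood at -0.13 on the log2 scale (95% interval -0.53 to 0.26). Of the 16 targets, 8 had their highest value in W3, again without the share of all tested genes beside it.

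Markers moved across the libraries in part as Myog did. Summed slow fiber markers were at 58.3, 33.5 and 87.7 CPM in W, W2 and W3 and 41.1, 30.3 and 33.4 CPM in K1, K2 and K3, so W3 was highest and K2 lowest, as for Myog. None of the 7 was called, and 6 had a negative log2 fold change, with a median of -0.61. Without W3 none was called, all 7 were negative and the median was -0.47. Tnnc1, the slow and cardiac troponin C, had 3.12, 1.25 and 5.96 CPM in WT and 2.05, 0.978 and 0.898 in KO (log2 fold change -1.39, edgeR adjusted p = 0.542). It was -0.72 without W3 and -1.80 without W2, and it passed the study's thresholds in 6 of 15 other settings, among them DESeq2 and the fits without W2 and without K1. Lower Tnnc1 mRNA in KO muscle was also reported by the study's qPCR. Myl3, a slow myosin light chain with the highest level per kilobase of the list, stood at -0.55 on the log2 scale (edgeR adjusted p = 0.757). It was -0.20 without W, -0.33 without K2 and -0.91 without W2, and passed the thresholds only in the last of the 15 other settings. The fast fiber markers had no called gene among 9, with a median log2 fold change of 0.18. Tnnt3, the fast troponin T and the highest of them per kilobase, had a log2 fold change of 0.08. Actn3, the actinin of fast fibers, stood at 0.43 (edgeR adjusted p = 0.528), and at 0.63 and past the thresholds without W2. Of 8 leukocyte markers 7 were tested, with Cd3e, of the T cell receptor complex, called higher (1.16 on the log2 scale) and Csf1r, the macrophage growth factor receptor, called lower (-0.69), both named after their values were known. The shares called over all tested genes were 2.21% higher and 3.14% lower. Without W3 the leukocyte median moved from -0.69 to -0.08, and only Cd3e was called. Of 7 fibroblast markers none was called, and all 7 were highest in W3. Their median was -0.33 with W3 and 0.09 without it. No marker of these lists was at 0 in all libraries. Summed satellite cell markers were also highest in W3, at 90.4 CPM against 72.6 to 82.1 in the other libraries. The part of the satellite cell, slow fiber, leukocyte and fibroblast markers in the Myog and Myod1 differences was not tested.

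**Figure D4:**
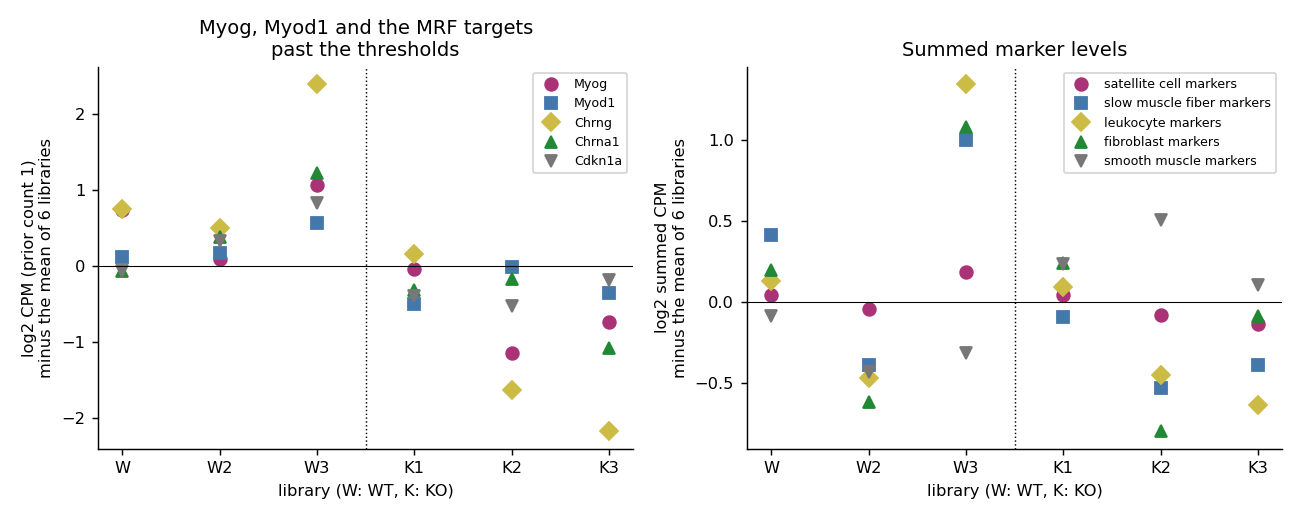
Left, log2 CPM (prior count 1) of Myog, Myod1 and the 3 called MRF targets in each library, minus each gene's mean over the 6 libraries; right, the same for summed marker levels, with the smooth muscle and pericyte markers under the label smooth muscle. W3 is highest for all 5 genes on the left and for the satellite cell, slow fiber, leukocyte and fibroblast markers on the right.

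Around the MEF2 factors, all 20 co-regulators and upstream kinases were tested and none was called. Their median log2 fold change was 0.10, with 14 positive and 6 negative, and 2 had libraries that did not overlap, where 15.4% of all tested genes did so. Ncoa3, a coactivator of the p160 family, had 11.9, 8.69 and 12.3 CPM in WT and 14.5, 14.2 and 13.8 CPM in KO (log2 fold change 0.37, edgeR adjusted p = 0.461, and 0.23 without W2). Camk2a, a calcium-dependent kinase, had the highest level per kilobase of the list, at 20.2 CPM per kilobase against 20.1 for Ppp3ca, a calcineurin subunit. It stood at 0.21 on the log2 scale (95% interval -0.10 to 0.52). None of the 10 listed targets of MEF2 was called, and their log2 fold changes ran from -0.22 to 0.19. Ckm, the muscle creatine kinase, stood at 0.02 on the log2 scale (95% interval -0.37 to 0.41). Srpk3, a muscle kinase that depends on MEF2, had 16.7, 17.6 and 15.3 CPM in WT and 14.7, 13.2 and 14.8 CPM in KO (log2 fold change -0.22, edgeR adjusted p = 0.608), without overlap of the genotypes.

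The genes whose library pattern was most like that of a member were taken from 10518 other protein-coding genes (10519 for Myf5 and Pax7) with a mean of at least 1 CPM. Likeness was the root mean square difference over the 6 libraries of log2 CPM centred on each gene's mean, given as a description only. Nearest to Myog were S100a6, a calcium-binding protein, at 0.201, and Cyth4, at 0.224, where the median gene was at 0.79. S100a6 had 9.33, 4.20 and 8.76 CPM in WT and 4.99, 2.53 and 3.07 CPM in KO, with the same lowest library in each genotype as Myog. Nearest to Myod1 was Bmp4, a growth factor of the BMP family, at 0.145, against a median of 0.41. Nearest to Myf6 were Tgif1 at 0.071 and Tacc2 at 0.082, which shared its peak in W2. Nearest to Myf5 were Zfp967 at 0.179 and Paox at 0.191, and nearest to Pax7 were Man1a at 0.082 and Zswim1 at 0.093. The MEF2 factors, which varied least, had nearer neighbours: Wdr7 (0.038) and Slc26a6 (0.039) for Mef2a, Prrx1 (0.036) and Bmpr1a (0.038) for Mef2c, and Syf2 (0.023) and Spg11 (0.027) for Mef2d.

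The fold changes of Myog, Myod1 and Myf6 were compared across 15 other settings of the analysis. Myog passed the study's thresholds in all 15, with log2 fold changes from -1.62 to -0.80, and Myod1 in 13, from -0.74 to -0.43. The value nearest to 0 for Myog came from leaving out W3 and K2 together, a setting added after the data were seen. Myf6 passed in 3 of the 15, each of them a fit without K1.

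**Figure D5:**
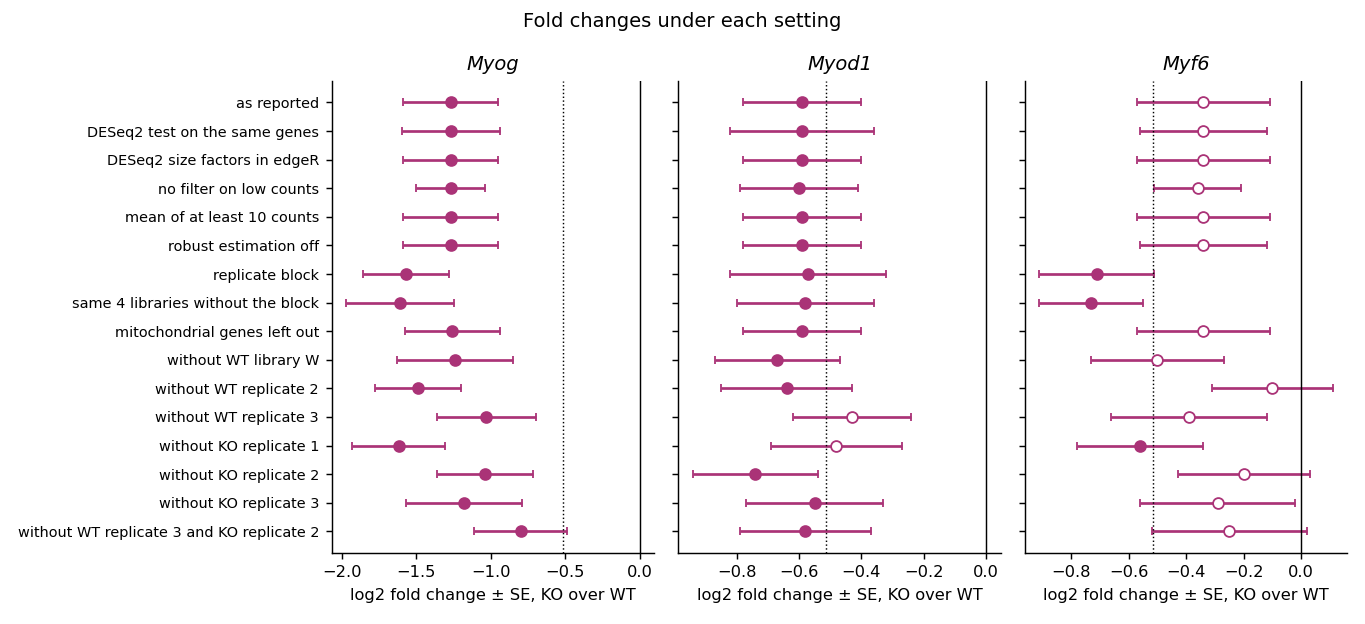
Log2 fold change of KO over WT ± standard error for Myog, Myod1 and Myf6 as reported and under each other setting; filled points pass the thresholds of the study and open points do not, and the dotted line marks the lower fold change threshold. Myog is filled throughout, Myod1 is open without WT replicate 3 and without KO replicate 1, and Myf6 is filled in 3 settings.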

How the data were processed

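RNA was sequenced from TA muscle of 3 WT and 3 KO mice. Alignment was with HISAT2 and counting per gene with featureCounts, and the authors deposited raw counts without normalization, with a gene length column. The methods of the study name GRCm38 and the submitters' processing notes GRCm39; gene positions are given as deposited and are not those of GENCODE M21 on GRCm38. Groups came from the sample titles. The titles number all 3 WT samples, but the column W carries no number and was assigned to WT only.

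Genes were kept with filterByExpr, scaled by TMM factors (0.893 to 1.20) and compared in edgeR (version 4.0.16, R 4.3.3) by a robust quasi-likelihood fit on all 6 libraries, with Benjamini-Hochberg adjustment over 15623 genes. Adjusted p values come from edgeR or DESeq2 (version 1.42.0) as named. The standard error of an edgeR fit was worked back from its test, as the absolute log2 fold change over the square root of the F statistic. Intervals are the log2 fold change ± the t quantile times this standard error. Replicate libraries differed by more than sampling noise (chi-square per degree of freedom 19.3 to 70.5). Nothing in the labels ties libraries to separate mice beyond their titles, so p values measure the spread between libraries. The members, the 6 pathway lists and the 9 marker lists were chosen with earlier results of these data known. Named beyond the members are, per list, called genes, the gene highest per kilobase and, where none was called, the gene with the smallest p, and the 2 genes nearest to a member; 2 genes that this rule names are not reported here.

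Alternatives were DESeq2, its size factors, no filter, a minimum mean of 10 counts, non-robust estimation and a replicate block. Others left out mitochondrially encoded genes (29.1% to 37.3% of counts in WT, 35.4% to 40.3% in KO) or each library in turn. A further 2, chosen after seeing the data, left out W3 and K2 or fitted the 4 libraries of the block without it.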

Additional observations from a re-analysis of the deposited data

How the results depend on the processing

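With 3 libraries per genotype, only large differences could be shown for low counts, and the spread of Pax7 was close to that of counting alone. Leaving out the filter gave 1780 genes past the study's thresholds in place of 836. Genes with an adjusted p under 0.05 numbered 45 with DESeq2, 363 without the filter, 24 with the replicate block, 13 in the same 4 libraries without the block, 230 without WT replicate 3 and KO replicate 2, and 0 to 242 when single libraries were left out, with 242 without KO replicate 2, 16 without KO replicate 1 and 2 without WT replicate 3. Genes past the thresholds then numbered 814 to 1072, and called members 1 to 2, with 1 without WT replicate 3. Leaving out WT replicate 3 with KO replicate 2, and fitting the 4 libraries without the block, were chosen after seeing the data. The replicate block used replicates 2 and 3 only, since W has no number. Deviations from the group means correlated at 0.042 for replicates 2 and -0.098 for replicates 3. Pairs with unlike numbers reached -0.153 (W2 and K1) and 0.123 (W2 and K3). These values cannot tell whether libraries with the same number were handled together, and the labels do not say so. The block gave 909 genes past the thresholds and called Myf6 (log2 fold change -0.71) beside Myog (-1.57) and Myod1 (-0.57), while Chrna1 (-1.42, unadjusted p = 0.0844, edgeR) no longer passed. The same 4 libraries without the block gave -0.73 for Myf6.

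Several small log2 fold changes turned sign. Mef2d came to -0.09 with the block and -0.09 in the same libraries without it. Without WT replicate 3 and KO replicate 2, Myf5 came to 0.26, Mef2a to 0.01, Pax7 to 0.18, Bhlhe40 to -0.14 and Ckm to -0.07, while Mef2d (0.14) and Acta1 (-0.28) kept their sign. With single libraries left out the ranges were -0.42 to 0.44 for Myf5, -0.18 to 0.06 for Mef2a, -0.02 to 0.18 for Mef2c, -0.03 to 0.11 for Mef2d, -0.29 to 0.17 for Pax7, -0.22 to 0.00 for Acta1, -0.12 to 0.21 for Bhlhe40, -0.07 to 0.16 for Ckm, -0.04 to 0.15 for Tcf4 and -0.00 to 0.23 for Tnnt3. The genotype difference in the Mef2c share ranged from -0.71 to 1.66 percentage points, that in the Myf6 share from 1.83 to 5.97 and that in the log2 ratio of Myog to Myod1 from -1.12 to -0.31. Over 26 named genes and 15 settings, 346 of 390 values kept their direction and their side of the thresholds. Of the others 23 turned sign, 14 newly passed and 7 no longer passed; for values that changed with the test or the filter, the cause was not tested.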

Other observations

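Of 6 smooth muscle and pericyte markers 2 were called, both higher in KO, and 4 had libraries that did not overlap, all with KO higher. Of all tested genes 2.21% were called higher. Counting both directions, 15.4% of them did not overlap, made up of 7.87% with KO lower and the rest with KO higher. Without W3 only Myh11 was called. Rgs5, a regulator of G protein signaling in pericytes, had 150, 122 and 125 CPM in W, W2 and W3 and 191, 236 and 179 CPM in K1, K2 and K3 (log2 fold change 0.61, edgeR adjusted p = 0.299). Myh11, the smooth muscle myosin heavy chain, stood at 0.83 on the log2 scale (edgeR adjusted p = 0.330). Rgs5 and Myh11 were picked with their values in view. All 8 endothelial markers had positive log2 fold changes, with a median of 0.31 and none called, and their summed level was 83.5 to 129 CPM in WT and 123 to 142 in KO. Without W3, the lowest library, the median was 0.14 with 6 of 8 positive. Mef2c is also used by endothelial cells, and the part of these cells in its level was not tested. Of 7 Schwann cell markers 4 were tested and none called, and none of 4 adipocyte markers passed the filter on low counts, with a summed level of 0.224 to 0.775 CPM.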
